A study of Mus musculus with 4 samples.

Results

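The genes described here are Zfhx2, its genomic neighbours Thtpa and Ap1g2, and the Zfhx2 paralogs Zfhx3 and Zfhx4, 5 of 19057 genes named on the array. Every probe whose platform symbol is one of these names was taken, which gave 12 probes: 2 for Zfhx2, 1 for Thtpa, 4 for Ap1g2, 3 for Zfhx3 and 2 for Zfhx4. The genes were chosen by the measured difference in intensity between treated and control arrays, together with their names and positions. That contrast is therefore given for them as a description, without p-values, and nothing rests on their passing a threshold.

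RNA came from E14, an established line of mouse embryonic stem cells kept in serum medium with LIF, the cytokine that sustains self-renewal. The control group was exposed for 2 hours to the vehicle DMSO, and the treated group to all-trans retinoic acid (ATRA) over the same time, at a concentration not given in the sources used here. One label calls the control cells untreated and another names the vehicle, which was followed here. Each group had 2 Illumina bead arrays, and all arrays shared the line and the medium. Per the labels, the arrays are numbered replicates, with no word on separate cultures, so errors and p-values cover the spread between these arrays alone, possibly a technical one, and the 4 arrays limit the precision. Of 10 embryonic stem cell markers, 10 were detected on every array. By their brightest probes 2 of them, Sox2 and Zfp42, fell with ATRA, by 0.39 and 0.40 on the log2 scale (limma adjusted p = 0.019 and 0.0041). The other Sox2 probe, at -0.23, did not pass an adjusted p of 0.05. Of all genes by brightest probe, 1.82% passed in either direction and 0.363% downward. The median change of the 10 was -0.10, with 4 positive, among them Nanog at 0.20 (adjusted p = 0.25). Of 7 fibroblast markers 3 were kept, with summed intensities of 406 to 412 with DMSO and 387 to 419 with ATRA, and Col1a2, Postn, Lum and Dcn were detected on no array. Of 6 primitive endoderm markers 2 were kept, with sums of 255 to 261 and 263 to 267, and 1 of them, Gata6, passed (adjusted p = 0.027), with 100.01 and 107.8 in the controls, of which 1 array detected it, and 130.5 and 116.7 after ATRA. The other, Dab2, was at -0.27 (adjusted p = 0.46), and Sox17, Pdgfra and Foxa2 were detected on no array. Of 8 neural markers 2 were kept and 0 passed (lowest limma adjusted p = 0.19), with sums of 247 to 259 and 263 to 265. They went opposite ways, Map2 at 0.36 and Tubb3 at -0.32, and Tubb3 was detected on 0 ATRA arrays. Sox1, Pax6, Neurog2 and Dcx were detected on no array. The sums use intensities before background correction. A probe was detected only from 104 to 106 upward, so much of each sum is background. The part of these markers in the values below was not tested. As a check of the treatment, Cyp26a1, whose product breaks down retinoic acid, rose with ATRA by 1.99 on the log2 scale (limma adjusted p = 2.6e-09). Its controls, at 104.6 and 111.1, were near the detection limit, and the change was 0.88 without background correction and 1.26 with an offset of 50, past the threshold in both.

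Zfhx2, Zfhx3 and Zfhx4 encode very large transcription factors that carry many zinc fingers together with several homeodomains. In mouse they are best known from neurons, and Zfhx3, first described as ATBF1, also from the circadian clock of the brain. Thtpa encodes thiamine triphosphatase, which splits thiamine triphosphate, a phosphorylated form of vitamin B1. Ap1g2 encodes gamma-2 adaptin, a large subunit that resembles gamma-1 adaptin of the AP-1 adaptor complex, which loads cargo into clathrin-coated vesicles at the trans-Golgi network and endosomes. Retinoic acid acts through receptors that sit on DNA as dimers and recognise repeated half-sites, and targets bound directly can change within hours.

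In the RefSeq gene table of GRCm38.p6, Zfhx2, Thtpa and Ap1g2 follow each other on mouse chromosome 14 with no other protein-coding gene between them. Zfhx2 and Ap1g2 lie on the minus strand and Thtpa on the plus strand, so Zfhx2 and Thtpa start next to each other and point apart, while Thtpa and Ap1g2 end against each other with overlapping ends. Zfhx3 lies on chromosome 8 and Zfhx4 on chromosome 3. An antisense RNA gene, Zfhx2os, lies within Zfhx2 and had no named probe. Because the ends of Thtpa and Ap1g2 overlap, a probe there could lie within both genes. The files do not give probe positions, so this could not be checked.

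The promoters of the adjacent genes are shown because these genes stood higher together with ATRA. Each window runs from 250 bases before to 50 bases after a RefSeq transcript start, 5′ to 3′ on the strand of the gene, at chr14:55091999-55092298 (minus strand) for Zfhx2, chr14:55094534-55094833 (plus strand) for Thtpa and chr14:55106544-55106843 (minus strand) for Ap1g2 in GRCm38.p6. Capitals mark matches, on either strand, to a retinoid half-site (AGGTCA, or one of the variants GGGTCA and also AGTTCA and also GGTTCA) or to the GC box GGGCGG, a site known for Sp factors.
Zfhx2: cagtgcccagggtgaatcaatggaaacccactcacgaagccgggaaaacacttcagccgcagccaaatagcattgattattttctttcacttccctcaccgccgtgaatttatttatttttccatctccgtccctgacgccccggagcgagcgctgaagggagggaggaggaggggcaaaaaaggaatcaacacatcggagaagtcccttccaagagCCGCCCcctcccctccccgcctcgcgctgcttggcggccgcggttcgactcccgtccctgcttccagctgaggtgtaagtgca
Thtpa: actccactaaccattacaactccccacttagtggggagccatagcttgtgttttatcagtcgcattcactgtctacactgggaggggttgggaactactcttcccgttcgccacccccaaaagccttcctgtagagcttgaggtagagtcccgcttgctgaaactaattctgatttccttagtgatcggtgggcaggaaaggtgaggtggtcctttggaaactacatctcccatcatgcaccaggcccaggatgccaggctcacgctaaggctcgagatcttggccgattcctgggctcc
Ap1g2: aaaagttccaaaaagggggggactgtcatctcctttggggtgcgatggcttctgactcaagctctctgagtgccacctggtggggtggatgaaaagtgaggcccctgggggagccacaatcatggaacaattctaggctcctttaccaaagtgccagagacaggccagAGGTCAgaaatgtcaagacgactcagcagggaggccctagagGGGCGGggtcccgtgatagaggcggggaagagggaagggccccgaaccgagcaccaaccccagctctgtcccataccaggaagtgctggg

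Ap1g2 had 1 retinoid half-site, AGGTCA on the strand of the gene, beginning 82 bases before the start, and 1 GC box beginning 40 bases before it. Zfhx2 had 1 GC box, read on the opposite strand, 33 bases before the start, and Thtpa had neither motif. No match overlapped another. Among 32851 RefSeq promoter windows of the same length, 43.7% held a half-site and 35.7% a GC box, so both are common. No direct repeat of these half-sites with 1, 2 or 5 bases between them (DR1, DR2 and DR5) was found in the windows of Zfhx2, Thtpa, Ap1g2 or Zfhx3; these occurred in 0.222%, 0.268% and 0.0974% of all windows. No CCAAT box (CCAAT) or TATA box (TATAAA) was found in them either, against 37.4% and 13.6% of all windows.

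The windows differed in base composition. The Zfhx2 window had a GC content of 57.3% and 20 CpG dinucleotides, an observed-to-expected CpG ratio of 0.825 that was above that of 81.2% of all windows. Thtpa had a GC content of 53%, 8 CpG and a ratio of 0.382, next to the median of 0.384 over all windows. Ap1g2 had a GC content of 58.3%, 7 CpG and a ratio of 0.281. The gene table lets Zfhx2 and Zfhx3 begin further upstream than these windows, so other starts exist. The Zfhx3 window, on chromosome 8, had a GC content of 67.3%, 21 CpG and a ratio of 0.626. The windows with most CpG were thus those of Zfhx2 and Zfhx3. The neighbouring genes had fewer CpG and lower ratios than Zfhx2, while the GC content of Ap1g2 was close to that of Zfhx2.

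With ATRA, Zfhx2 was higher by 0.89 on the log2 scale, or 1.85-fold (95% interval 1.64 to 2.10), by its brightest probe, ILMN_2964785. The deposited intensities of this probe were 884 and 826 in the controls and 1446 and 1596 after ATRA. After background correction they gave 9.60 ± 0.08 and 10.49 ± 0.11 (mean log2 intensity ± SD, n = 2). Both treated arrays lay far above both controls, by several times the spread within either group. In RNA from whole cultures, a change in the share of expressing cells and a change in RNA per cell cannot be told apart.

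The other Zfhx2 probe, ILMN_2528345, read 801 and 681 in the controls and 1279 and 1233 after ATRA. Its means were 9.37 ± 0.19 and 10.20 ± 0.04 on the log2 scale (n = 2), a difference of 0.83 (95% interval 0.65 to 1.02). The controls were further apart here than by the brighter probe, and the groups again did not overlap. The changes by the 2 probes, which target the same transcript record, differed by 0.06. Among the 10194 genes with a kept probe, the change of Zfhx2 was the 23rd largest upward, and 99.8% of genes had a smaller one.

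**Figure D1:**
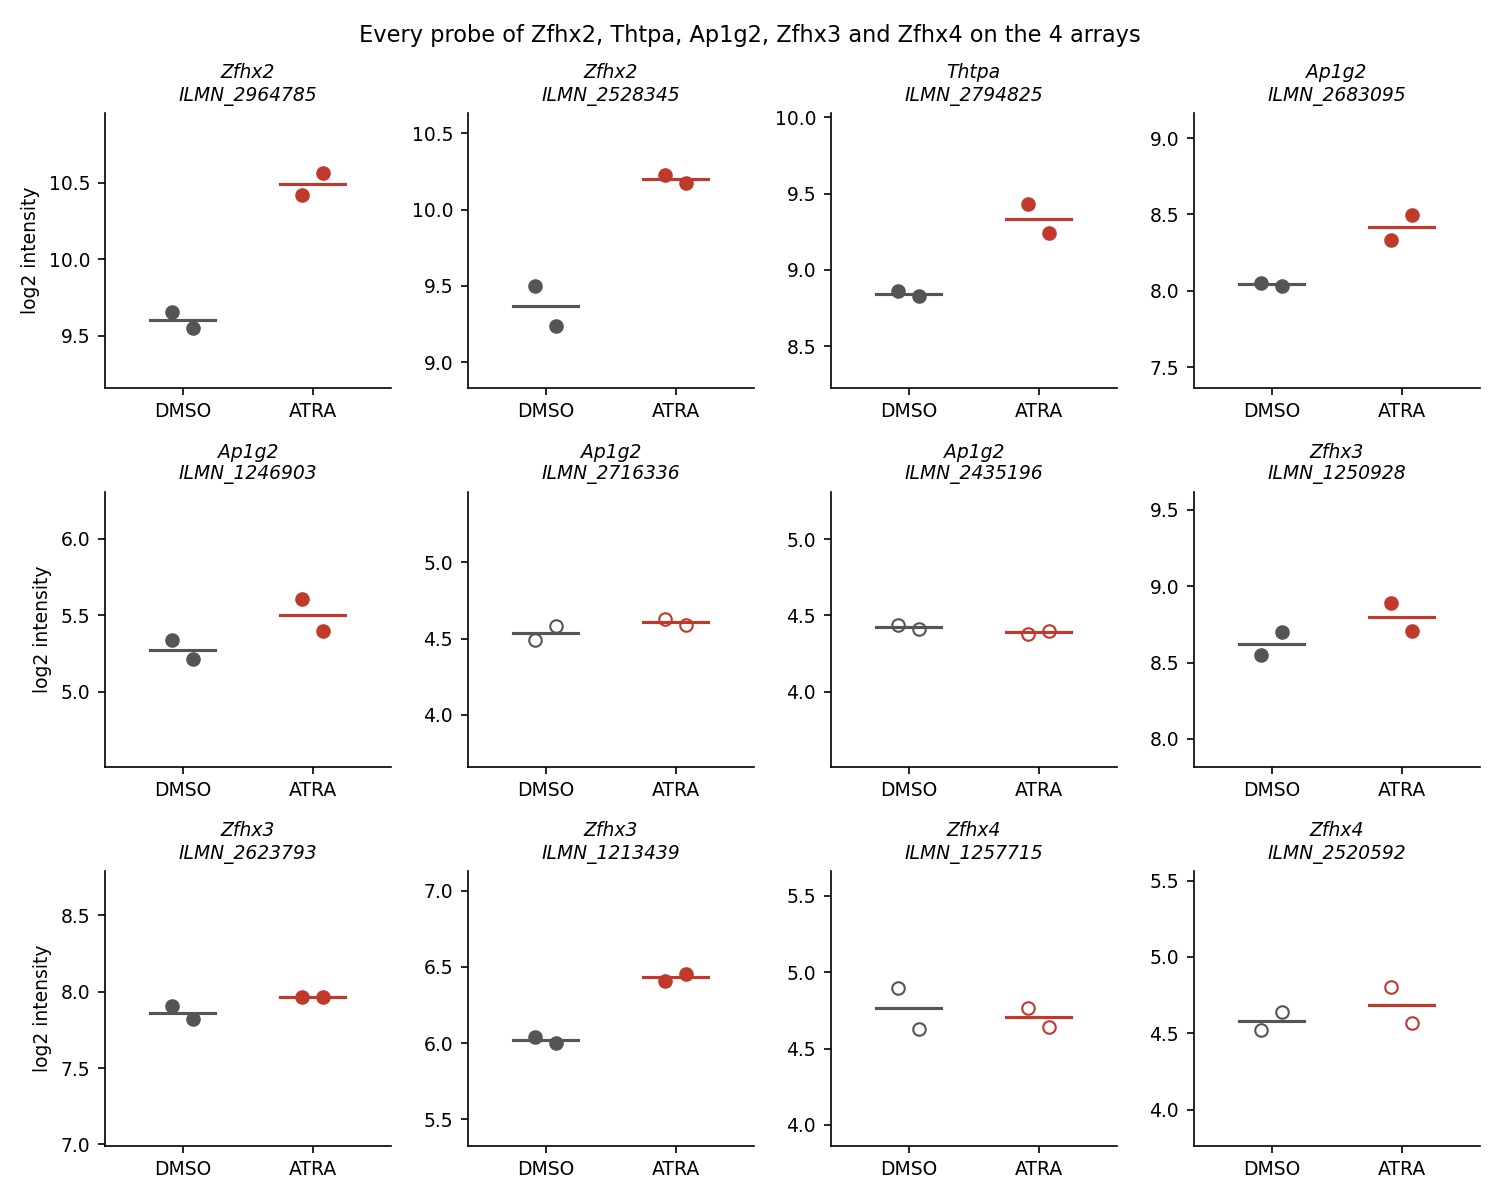
Background-corrected log2 intensity of each of the 12 probes on the 4 arrays (points) with the group means (lines), DMSO in grey and ATRA in red; every panel spans the same range of log2 units, and open points mark probes that were not kept because they were not detected on at least 2 arrays. Both Zfhx2 probes and the Thtpa probe show wide gaps between groups, and the 4 open panels hold probes near background.

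Thtpa was represented by 1 probe, ILMN_2794825, with deposited intensities of 543 and 531 in the controls and 768 and 682 after ATRA. Its log2 mean was 8.84 ± 0.03 with DMSO and 9.34 ± 0.14 with ATRA (n = 2), a difference of 0.49 or 1.41-fold (95% interval of the difference 0.30 to 0.68). The lower of the treated arrays still exceeded both controls by more than the spread between treated arrays. Of all genes, 98.7% had a smaller change.

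Ap1g2 had 4 probes, of which 2 were kept. The brightest, ILMN_2683095, read 343 and 340 in the controls and 400.4 and 439 after ATRA. Its log2 means were 8.04 ± 0.01 and 8.42 ± 0.12 (n = 2), a difference of 0.37 or 1.30-fold (95% interval 1.13 to 1.49). The controls nearly coincided and both treated arrays lay above them.

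The second kept Ap1g2 probe, ILMN_1246903, was close to background, at 118 and 115 with DMSO and 126 and 120 with ATRA. It was higher by 0.23 with an interval from -0.09 to 0.54 that includes no change. The groups lay apart by less than the distance between the treated arrays. The remaining probes, ILMN_2716336 and ILMN_2435196, were detected on 0 of the 4 arrays (lowest detection p of 0.115 and 0.291), so no fold is given for them.

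The paralog Zfhx3 was detected on every array by all 3 of its probes. By the brightest, ILMN_1250928, the intensities were 452 and 493 with DMSO and 551 and 495 with ATRA. The lower treated array matched the higher control within 0.01 log2 units (8.71 against 8.70), and the difference was 0.17 (95% interval -0.02 to 0.37). By ILMN_2623793 they were 318 and 303 with DMSO and 327 and 327 with ATRA, a difference of 0.10 (95% interval -0.10 to 0.30). By both probes the interval included no change.

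The dimmest Zfhx3 probe, ILMN_1213439, had a larger change than the other Zfhx3 probes, though its interval overlaps theirs and the difference was not tested. It read 144 and 142 in the controls and 163 and 165 after ATRA, with log2 means of 6.02 ± 0.03 and 6.43 ± 0.03 (n = 2). The difference was 0.41 (95% interval 0.16 to 0.66), and the groups were clearly apart. This difference was larger than the 0.37 of the brightest Ap1g2 probe, but the order depended on the processing. Without background correction the Zfhx3 probe was at 0.20 and the Ap1g2 probe at 0.30. With DMSO replicate 1 left out they were at 0.43 and 0.38. The changes of the Zfhx3 probes thus spread over 0.31 log2 units, against 0.06 for Zfhx2. Without background correction those of Zfhx3 were closer together, at 0.15, 0.08 and 0.20 from the brightest to the dimmest probe. All 3 probes carry the same transcript record, and where each lies on it is not given in the files.

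Zfhx4 was at background. ILMN_2520592 was detected on 0 of the 4 arrays, with intensities from 98.2 to 105.2. ILMN_1257715 was detected on 1 DMSO array, at 107, and on none of the others (101.1 to 104.3). The treated and control arrays overlapped on both probes, and no change can be stated for this gene at this signal.

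Set side by side, the 5 kept probes of the adjacent genes had changes from 0.23 to 0.89 with a median of 0.49, and the 3 kept probes of the paralogs, all Zfhx3, from 0.10 to 0.41 with a median of 0.17. The median over all 19112 kept probes was -0.007. The ranges overlap, because in the main setting the dimmest Zfhx3 probe changed by more than either Ap1g2 probe. That order reversed under some other settings, and the difference between neighbours and paralogs was not tested. On all 8 kept probes both treated arrays lay above both controls, as on 19.6% of all kept probes, while 40.8% had groups that did not overlap in either direction. In the limma fit over the whole table, 4 of these 8 probes passed an adjusted p of 0.05, both of Zfhx2, that of Thtpa and the brightest of Ap1g2, beside 1.58% of all kept probes in either direction and 1.26% in the upward one. The contrast chose the genes, so nothing is read from these counts.

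**Figure D2:**
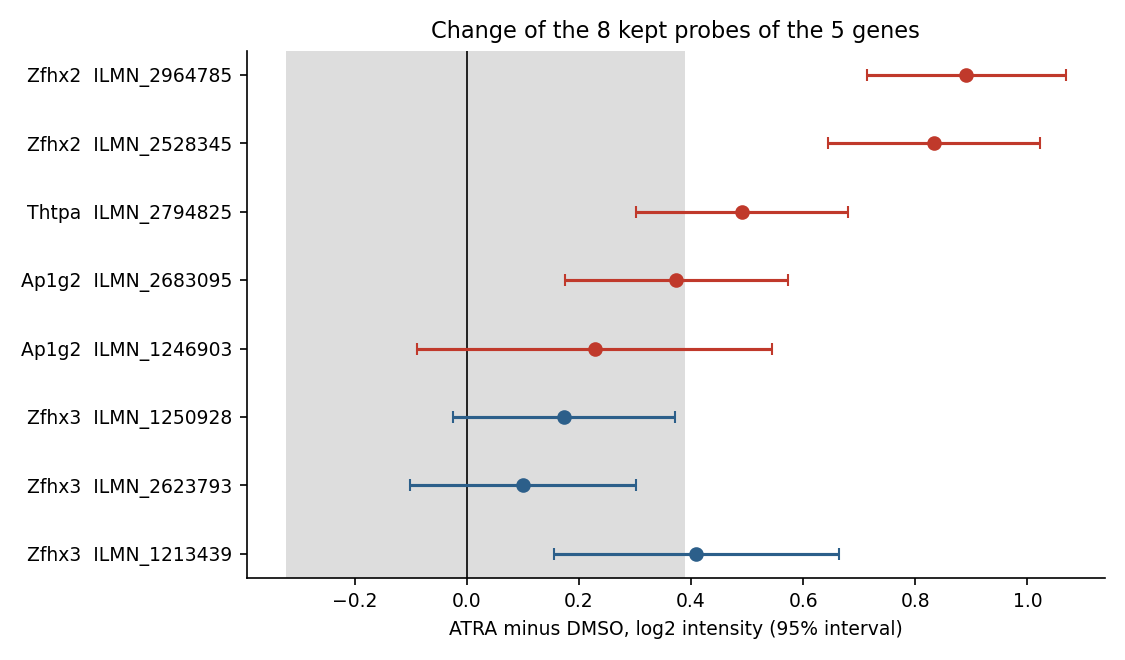
ATRA minus DMSO in log2 intensity with 95% intervals for the 8 kept probes, neighbours in red and the paralog Zfhx3 in blue; the grey band holds the central 95% of changes over 10194 genes, from -0.32 to 0.39. Zfhx2 and Thtpa lie right of the band, the brightest Ap1g2 probe at its edge with a change of 0.37, and the dimmest Zfhx3 probe just past it with 0.41.

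The fit was repeated under other processing, as a description of how the values move. The contrast chose these genes, so their passing under a setting is not read as support. Both Zfhx2 probes passed the same threshold under each of the 13 settings run, with changes from 0.82 to 0.97 and from 0.70 to 0.96. Thtpa ranged from 0.40 to 0.59 and no longer passed when the eBayes step ran without an intensity trend or when ATRA replicate 1 was left out. Ap1g2 ranged from 0.29 to 0.46 by its brightest probe and passed under 8 of the 13. It missed without the trend, without either ATRA replicate, with no filter on dim probes and with detection required on all 4 arrays. For Zfhx3 none of the 3 probes passed under any of the 13, and without background correction the change of its dimmest probe was 0.20 in place of 0.41.

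**Figure D3:**
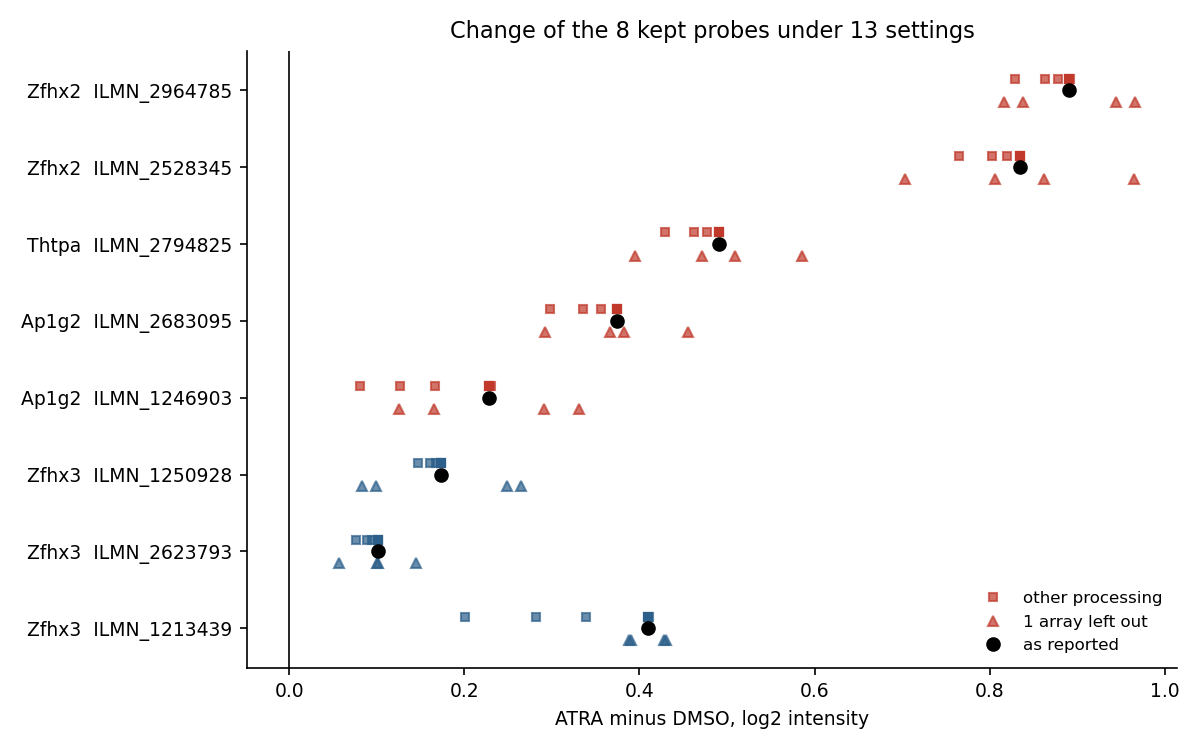
ATRA minus DMSO in log2 intensity of the 8 kept probes as reported (black circles), under other processing (squares) and with 1 array left out (triangles), neighbours in red and Zfhx3 in blue. Zfhx2 stays at 0.70 or above, and the dim Ap1g2 and Zfhx3 probes move most with the background correction.

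The next comparison described changes further along chromosome 14. The flanking genes were taken by gene order, but the trio they flank was chosen partly by these same values. A neighbour that rose could have been taken as a member, so low changes next to the trio may be partly set by that choice. Of the 30 protein-coding genes that flank the trio, 15 on each side, 28 were on the array and 15 had a kept probe. By limma, 0 of these 15 passed the adjusted threshold, against 1.82% of all genes (1.46% upward and 0.363% downward), and 1 had an unadjusted p under 0.05, against 12.4%. In 1 of the 15 both treated arrays lay above both controls, against 20.2% of all genes. Their changes ran from -0.14 to 0.32 with a median of 0.02, while the median of all genes was -0.004. The count was also 0 by any kept probe, under each of the 13 settings, and in the main setting over 5 genes on each side (3 measured) and over 30 on each side (34 measured, 3 with an unadjusted p under 0.05); over 30 on each side it reached at most 1 across the settings. At a background of 1.82%, a count of 0 among 15 genes is near the background and says little about the region.

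Next to Zfhx2 lies Ngdn, whose product neuroguidin takes part in ribosome assembly and translational control. It was a bright probe, at 11.81 and 11.70 log2 units with DMSO and 11.83 and 11.73 with ATRA. The groups overlapped, and its change was 0.02 (95% interval -0.14 to 0.18, limma adjusted p = 0.96). Beyond it are the cardiac myosin heavy chain genes Myh7, whose 3 probes were not kept, and Myh6, near background, with a change of -0.14 (adjusted p = 0.82).

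On the side of Ap1g2, the junctophilin gene Jph4 and the short-chain dehydrogenase gene Dhrs2 had no kept probe, so the nearest genes on that side were not measured. The third, Dhrs4, which encodes a dehydrogenase that reduces retinal among other carbonyl compounds, had a change of 0.10 (95% interval -0.15 to 0.35, adjusted p = 0.84). Its arrays overlapped between groups. The largest change among the measured flanking genes was that of Bcl2l2, the ninth gene beyond Zfhx2, which encodes the survival protein BCL-W. It stood at 7.27 and 7.17 with DMSO and 7.55 and 7.53 with ATRA, higher by 0.32, and did not pass (adjusted p = 0.16), while its other probes were at 0.19 and -0.16. Bcl2l2 was singled out after its values were seen.

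**Figure D4:**
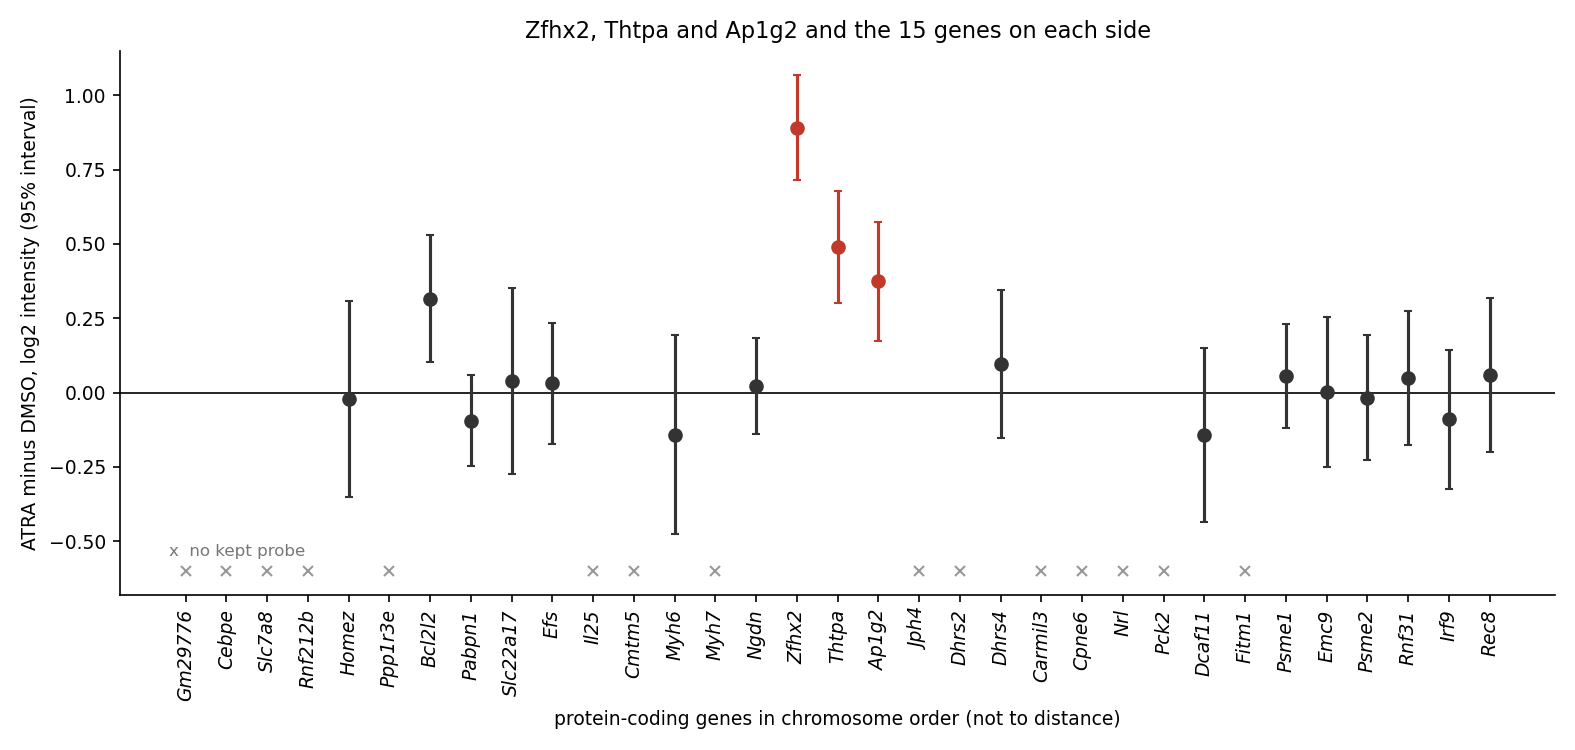
ATRA minus DMSO in log2 intensity with 95% intervals for Zfhx2, Thtpa and Ap1g2 (red) and the 15 protein-coding genes on each side (black), by brightest kept probe and in chromosome order; crosses mark genes with no kept probe. The flanking genes lie between -0.14 and 0.32 and Ngdn, next to Zfhx2, at 0.02, while on the other side the first measured gene is Dhrs4.

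Of the 10 genes flanking Zfhx3, 8 were measured, 0 passed by limma and 2 had an unadjusted p under 0.05, with changes from -0.23 to 0.18, beside 1.82% and 12.4% of all genes. Zfhx4 has 6 such genes, with 1 of them on one side, of which 3 were measured, 0 passed and 0 had an unadjusted p under 0.05. The lowest adjusted p was 0.21 in the first group and 0.72 in the second, and counts of 0 among so few genes are near the background.

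The genes that work with the products of the trio were then examined. Of 19 genes of the AP-1 adaptor and its clathrin partners, 16 were measured and 0 passed by their brightest probe (limma; 0 with an unadjusted p under 0.05), beside 1.82% and 12.4% of all genes, so the count past the threshold is near the background. Their changes ran from -0.17 to 0.11 with a median of 0.04. Ap1g1, the gamma-1 adaptin that is the usual counterpart of gamma-2 adaptin, had a change of 0.05 (95% interval -0.17 to 0.28, adjusted p = 0.92), and the beta-1 subunit gene Ap1b1 had a change of 0.002 (adjusted p = 1.00). The light chain gene Clta, the brightest of the list, was at -0.12 (adjusted p = 0.62). The exception by another probe was Cltc, the clathrin heavy chain, where a dimmer probe fell by 0.65 (adjusted p = 0.016) while the brightest was at 0.03 and the third at 0.10.

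Of 14 genes of thiamine uptake and use, 9 were measured, 0 passed (limma) and 1 had an unadjusted p under 0.05, both near the shares of all genes, 1.82% and 12.4%. Changes ran from -0.28 to 0.31 with a median of -0.007. The thiamine transporter gene Slc19a2 had a change of 0.03 (adjusted p = 0.95), and Tkt, the thiamine-dependent transketolase and the brightest gene of the list, had 0.09 (95% interval -0.08 to 0.26, adjusted p = 0.75). Pdha1, of the pyruvate dehydrogenase complex, which also needs thiamine diphosphate, was at -0.13 (adjusted p = 0.57).

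Of 11 other genes for homeodomain transcription factors, most of which also carry zinc fingers, 8 were measured. Homez, among these 8, was also among the measured genes flanking Zfhx2. By limma 0 of the 8 passed and 2 had an unadjusted p under 0.05, beside 1.82% and 12.4% of all genes. Those were the teashirt genes Tshz1 and Tshz3, higher by 0.32 and 0.29 (adjusted p = 0.40 for each). The median change of the list was 0.009. Zeb1, a repressor of E-cadherin, was at 0.10 (adjusted p = 0.80), and Adnp, the brightest of the list, at 0.006 (95% interval -0.16 to 0.17, adjusted p = 0.99). None of these 3 lists had a gene past the threshold by its brightest probe under any of the 13 settings.

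**Figure D5:**
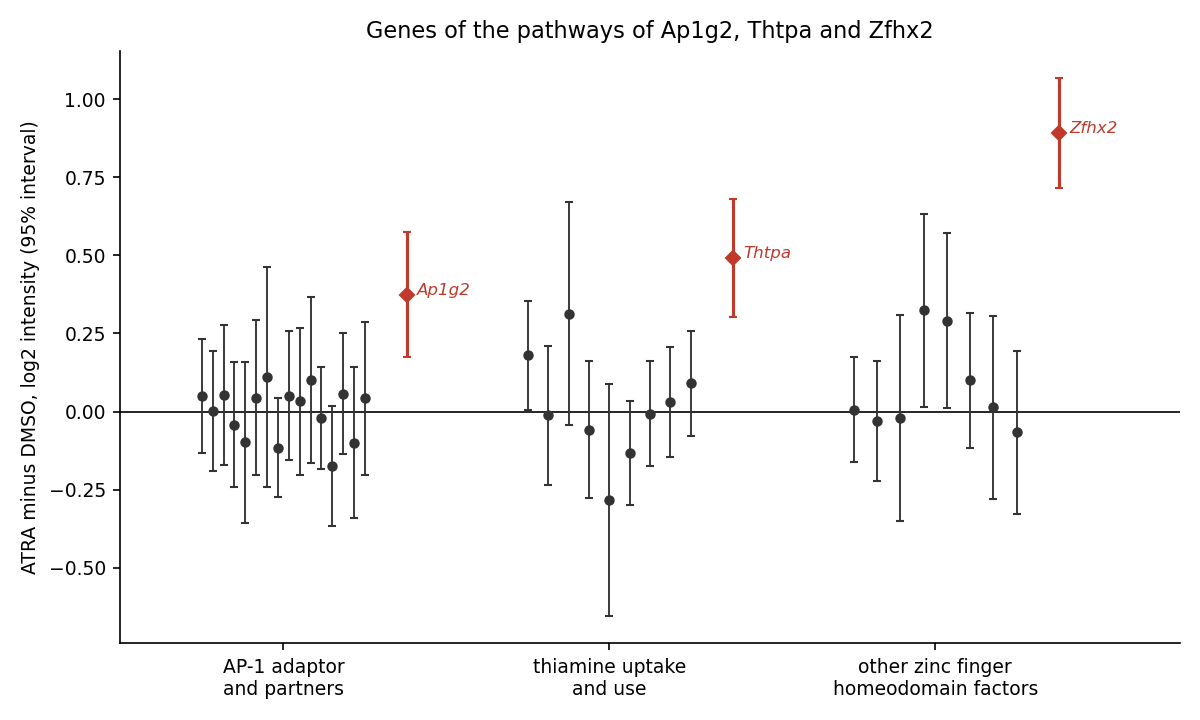
ATRA minus DMSO in log2 intensity with 95% intervals for the measured genes of each of 3 lists (black, by brightest kept probe, in alphabetical order), with Ap1g2, Thtpa and Zfhx2 (red diamonds) beside the list they relate to. The listed genes lie between -0.28 and 0.32, below the value of 0.89 of Zfhx2.

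As a check on the treatment across more genes, 10 of 15 listed early targets of retinoic acid were measured. The list was chosen with earlier results of these data known, so it is not an independent check. By limma 4 of the 10 rose, Cyp26a1, Cdx1, Bhlhe40 and Skil, beside 1.46% of all genes, and 0 fell. Without the intensity trend the count was 1, with Cdx1, Bhlhe40 and Skil no longer past the threshold. The list median was 0.48, and Gbx2, its brightest gene, was at -0.24 (limma adjusted p = 0.17). Rarb and Rara, at 0.54 and 0.43, did not pass (limma adjusted p = 0.19 and 0.15). Rarb and Foxa1 were detected on 2 ATRA arrays and 0 DMSO arrays, so the ATRA signal alone kept them. Their control values were at background, so the sizes of their changes are not read, though the list median includes both. Cyp26b1, Hoxb1, Stra8 and Dhrs3 had no kept probe.

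Genes whose pattern over the 4 arrays was most like that of the brightest Zfhx2 probe were found by the root mean square difference between log2 values, each probe centred on its mean. The closest was Vegfa, the vascular endothelial growth factor, with a difference of 0.05 log2 units and a change of 0.81 (0.44 by its other probe). It was followed by Slc43a1, an amino acid transporter, and by Grasp, a scaffold protein, with differences of 0.05 and 0.07. Their changes were 0.97 and 0.88, each by a probe that is not its brightest. The other probe of Slc43a1 was at 0.80 and those of Grasp at 0.76 and 0.72. The controls of the Slc43a1 probe, at 112 and 110, were near the detection limit. Dusp5, a phosphatase of ERK, and Tfap2c, an AP-2 transcription factor, came next with 0.07 each and changes of 0.87 and 0.81, and the other Tfap2c probes were at 0.45 and 0.78. Without background correction the changes of Vegfa, Slc43a1, Grasp, Dusp5 and Tfap2c were 0.48, 0.37, 0.61, 0.56 and 0.78. The second Zfhx2 probe itself differed by 0.10, so these 5 genes were closer to the first Zfhx2 probe than its own second probe was. With 4 arrays in 2 groups, this measure is set mostly by the size of the change, and the likeness was not tested.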

How the data were processed

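Bead-array signals were measured in 2 DMSO and 2 ATRA samples. GenomeStudio is named in the submitters' processing notes, and no further step is given in the sources used here. The authors deposited linear intensity values; sorted, they differ between arrays by at most 0.228, so they were already quantile normalized. Each intensity has its detection p-value beside it, per the file headers. The deposited series matrix holds the same intensity values minus 93.5.

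From these, limma 3.58.1 in R 4.3.3 ran neqc (normexp background correction from the detection p-values, offset 16, quantile normalization, log2). The offset makes the folds of dim probes too small; a shift common to most probes cannot be seen. Probes with a detection p under 0.05 on at least 2 of the 4 arrays were kept, 19112 of 45281. The groups were compared in limma (lmFit, then eBayes with its intensity trend), and p-values were adjusted over all kept probes by the Benjamini-Hochberg method. Intervals and standard errors come from this fit. It was tested on simulated data for its calls and changes only, with independent noise of the spread that the fit itself estimated. The intervals and standard errors were not tested in this way. A gene was given by its kept probe with the highest mean. Of 34885 probes with 1 symbol in the platform annotation, 34807 matched the RefSeq table by Entrez identifier and 0 were renamed; 18 had several symbols and 10378 were unnamed here.

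Members, lists and alternatives were chosen with earlier results of these data known. Named were all member probes, genes of the lists or flanks that passed, the 3 nearest genes on each side, the brightest gene of each list, Cyp26a1 and the 5 most alike genes; any other gene named was chosen after its values were seen. The alternatives were no background correction, an offset of 50, the series matrix, no dim-probe filter, detection on all 4 arrays, no trend, no second quantile step, the replicate number as a block, and each array left out. Sequences are from RefSeq (GRCm38.p6), with promoters for 4 of the 5 genes.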

Additional observations from a re-analysis of the deposited data

How the results depend on the processing

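Of the kept probes, 302 passed the threshold, which moved to 74 without the intensity trend, to 492 with the replicate number as a block, and to between 133 and 956 with 1 array left out (133 and 147 without ATRA replicates 1 and 2, 495 and 956 without DMSO replicates 1 and 2). The number of listed genes past the threshold was 4, became 1 without the trend and ran from 3 to 5 with 1 array left out. The count of flanking genes of Zfhx2 past the threshold was 0 under every setting run for 5 and 15 genes on each side, and at most 1 for 30. Over 24 named probes and 12 alternatives, 271 of 288 values kept their direction and side of the threshold, 11 no longer passed, 1 newly passed (Gbx2 without DMSO replicate 2, -0.32) and 5 changed sign, all of values near 0 that passed under no setting. With 1 array left out, Adnp ran from -0.058 to 0.070 (-0.009 without DMSO replicate 2, -0.058 without ATRA replicate 2), Ngdn from -0.028 to 0.074 (-0.028 without DMSO replicate 2, -0.024 without ATRA replicate 1) and Dhrs4 from -0.015 (without ATRA replicate 2) to 0.21; the cause was not tested. Besides Thtpa and Ap1g2, those that no longer passed were Cdx1, Bhlhe40 and Skil without the trend and Skil without ATRA replicate 1. Deviations from the group means of same-numbered samples correlated with r = -0.003, and nothing in the labels pairs them, so the replicate block was not used for the results; it changed no call of a named probe. A probe was detected from an intensity of 104 to 106 upward, and below that no change can be stated.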
